A study of Mus musculus with 12 samples.

Results

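The 7 genes described here make and load MHC class II molecules: Ciita, H2-Aa, H2-Ab1, H2-Eb1, Cd74, H2-DMa and H2-DMb1. They were chosen with earlier results of these data known and taken by gene name from the deposited expression table. Of the 7, 7 were found among its 16335 genes. The table covers 12 libraries of rRNA-depleted tumor RNA in 4 groups of 3. One group was untreated, another received ADI-PEG20, another received chloroquine, and the last received both agents and is called the combination below. All 12 libraries are labelled as tumors of BVMA01R, a mouse sarcoma line, in female C57BL/6J mice, and all carry the same genotype, Myf5-Cre;p53-/-;Ass1-/-, the untreated group included. The Cre is driven from Myf5, a gene of muscle progenitors, and every group rests on this 1 line. Doses, treatment times, mouse age and the site of the tumors are not given in the sources used here, nor is it said that each library came from its own animal, so p-values measure only the spread between these libraries.

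ADI-PEG20 is a pegylated arginine deiminase, an enzyme that removes arginine from the blood, and cells without Ass1 cannot make arginine from citrulline. Chloroquine is a weak base that collects in lysosomes, raises their pH and blocks the last step of autophagy. MHC class II molecules show peptides from endosomes and lysosomes to CD4+ T cells. They are made mainly by dendritic cells, macrophages and B cells, and interferon gamma can induce them in other cells, including tumor cells. Ciita is the coactivator that switches the class II genes on. H2-Aa and H2-Ab1 encode the alpha and beta chains of I-A, and H2-Eb1 encodes the beta chain of I-E. C57BL/6 mice lack a working alpha chain for I-E, so H2-Eb1 RNA in this strain does not give I-E at the cell surface. Cd74 is the invariant chain, which fills the peptide groove of new class II molecules and guides them to endosomes. H2-DMa and H2-DMb1 form the exchanger that removes the last piece of Cd74 from the groove and edits the peptide.

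On GRCm38, H2-DMa (ENSMUSG00000037649, chr17:34119541-34139101), H2-DMb1 (ENSMUSG00000079547, chr17:34153072-34160230), H2-Ab1 (ENSMUSG00000073421, chr17:34257689-34269419) and H2-Eb1 (ENSMUSG00000060586, chr17:34305867-34316674) lie on the plus strand of the class II region. H2-Aa (ENSMUSG00000036594, chr17:34282744-34287823) lies on the minus strand between H2-Ab1 and H2-Eb1. Ciita (ENSMUSG00000022504, chr16:10480059-10528418, plus strand) and Cd74 lie on other chromosomes. Class II promoters are known for an X box, bound by the RFX complex, followed by a Y box, bound by NF-Y. Ciita binds no DNA itself and is recruited by the proteins on these boxes. RefSeq promoter windows on GRCm38.p6, from 250 bases before to 50 bases after each start, were on hand for 4 of the 7 genes, and 3 of these held GNAAC followed by ATTGG, the reverse complement of CCAAT, with 15 to 40 bases between them. The stretches are shown because they hold the spacing that class II promoters are known for. Each is written 5′ to 3′ on the gene's own strand, with both motifs in capitals.
H2-Eb1, chr17:34305761-34305827, plus strand: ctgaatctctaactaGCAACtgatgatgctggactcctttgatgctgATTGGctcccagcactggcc
H2-Aa, chr17:34287852-34287919, minus strand: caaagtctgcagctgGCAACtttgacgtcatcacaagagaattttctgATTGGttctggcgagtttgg
H2-DMb1, chr17:34153082-34153149, plus strand: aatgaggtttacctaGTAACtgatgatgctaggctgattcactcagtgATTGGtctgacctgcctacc
Between the motifs stood 28 bases in H2-Aa, 28 in H2-DMb1 and 27 in H2-Eb1. GNAAC, a spelling chosen after the stretches were seen, followed by ATTGG was found on either strand in 4.23% of the 32851 windows in the RefSeq table. With the longer spelling AGNAAC the pair was found in 1.41% of windows and in 2 of the 4 members, H2-DMb1 and H2-Eb1. CCAAT alone, again on either strand, stood in 4 of the 4 members and in 37.4% of all windows. The fourth member, H2-DMa, has 2 listed starts, and neither window held the pair. These are matches of letters, not measured binding.

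The libraries held between 15501998 and 28410940 reads on the listed genes, as recovered from the deposited log2 CPM, read counts scaled to a common library size. One read was therefore worth 0.0320 to 0.0794 CPM. The ADI-PEG20 library 1 stood apart, with 120 genes at 0 reads against 7 to 43 in the others and skeletal muscle markers summing to 7165 CPM, the highest of the 12. It also had the lowest of the library quality weights, 0.283, and the untreated library 2 had the next lowest, 0.516. Mesenchymal markers, checked for the sarcoma label, were abundant, with 7 of 7 in the table and a sum of at least 25693 CPM in each library. The muscle stem cell marker Pax7 and the epithelial marker Epcam are not among the genes of the table used here.

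Ciita had its lowest mean in the untreated tumors and lay close to one level in the 3 ADI-PEG20 libraries. Its CPM was 7.79, 9.94 and 13.6 in the untreated libraries, 10.4, 9.32 and 36.3 with chloroquine, 31.3, 33.0 and 30.6 with ADI-PEG20, and 14.5, 13.4 and 34.7 with the combination (libraries 1, 2 and 3 of each group). The ADI-PEG20 libraries did not overlap the untreated ones, while library 3 of the chloroquine group and library 3 of the combination reached the ADI-PEG20 level and the other 2 of each group did not. The mean was 3.35 ± 0.41 log2 CPM (SD, n = 3) in untreated tumors and 4.98 ± 0.06 (SD, n = 3) with ADI-PEG20. The difference was 1.63 with a standard error of 0.46, and limma's adjusted p over all genes was 0.48. Each Ciita value rests on 162 to 1033 reads. Of its exonic bases, 329 (3.45%) also belong to Dexi on the opposite strand, and whether counting used strand is not given in the sources used here.

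The I-A genes spread over a wider range than Ciita. H2-Aa stood at 50.5, 30.7 and 121 CPM in the untreated libraries, 69.0, 66.2 and 256 with chloroquine, 157, 242 and 297 with ADI-PEG20, and 145, 104 and 329 with the combination. The highest untreated library, number 3, lay below the lowest ADI-PEG20 library and above the lowest combination library. H2-Aa differed between ADI-PEG20 and untreated tumors by 1.97 log2 units (standard error 0.58, adjusted p = 0.51 in limma). H2-Ab1, the partner chain, stood at 57.0, 30.8 and 135 CPM in the untreated libraries, 73.9, 75.4 and 313 with chloroquine, 172, 235 and 282 with ADI-PEG20, and 127, 90.0 and 293 with the combination. Here the single highest library of the 12 was chloroquine library 3. The difference of H2-Ab1 between ADI-PEG20 and untreated tumors was 1.86 log2 units (standard error 0.60, adjusted p = 0.52 in limma).

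H2-Eb1, whose product has no partner chain in this strain, had the widest difference of the 7 genes between ADI-PEG20 and untreated tumors. It stood at 45.0, 24.6 and 99.0 CPM in the untreated libraries, 54.6, 56.9 and 263 with chloroquine, 195, 184 and 230 with ADI-PEG20, and 123, 77.2 and 245 with the combination. The ADI-PEG20 libraries lay close together, at 7.66 ± 0.17 (SD, n = 3) log2 CPM, while the chloroquine libraries spread over 6.55 ± 1.29 (SD, n = 3). The difference from untreated was 2.08 log2 units (standard error 0.60, adjusted p = 0.50 in limma).

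Cd74 (ENSMUSG00000024610, chr18:60803848-60812652, plus strand) was the most abundant of the 7 genes per length. Its CPM was 137, 106 and 350 in the untreated libraries, 185, 195 and 794 with chloroquine, 515, 669 and 728 with ADI-PEG20, and 335, 287 and 826 with the combination. Again the 3 ADI-PEG20 libraries were all above the 3 untreated ones, and the combination and chloroquine groups each held 1 high library, number 3. The difference between ADI-PEG20 and untreated tumors was 1.87 log2 units (standard error 0.56, adjusted p = 0.52 in limma).

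The peptide exchanger genes were lower in abundance and unequal in range. H2-DMa stood at 9.71, 11.5 and 11.7 CPM in the untreated libraries, 10.3, 10.2 and 19.9 with chloroquine, 18.9, 15.9 and 20.0 with ADI-PEG20, and 18.5, 13.0 and 21.6 with the combination. It was the one gene of the 7 whose combination libraries, too, all lay above the untreated ones. Its difference between ADI-PEG20 and untreated tumors was the smallest, 0.73 log2 units (standard error 0.27, adjusted p = 0.52 in limma). Of its exonic bases, 360 (10.4%) are shared with the more abundant Brd2 on the opposite strand, at a mean of 8.40 log2 CPM. H2-DMb1 stood at 6.27, 7.06 and 17.2 CPM in the untreated libraries, 12.3, 10.2 and 28.9 with chloroquine, 28.6, 22.3 and 28.0 with ADI-PEG20, and 17.2, 16.1 and 32.1 with the combination. The difference from untreated with ADI-PEG20 was 1.52 log2 units (standard error 0.43, adjusted p = 0.48 in limma). Its counts are uncertain, because its coding sequence is 95.9% identical to that of the neighbouring H2-DMb2 over 783 bases, and 60.7% of its words of 31 bases also occur there.

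**Figure D1:**
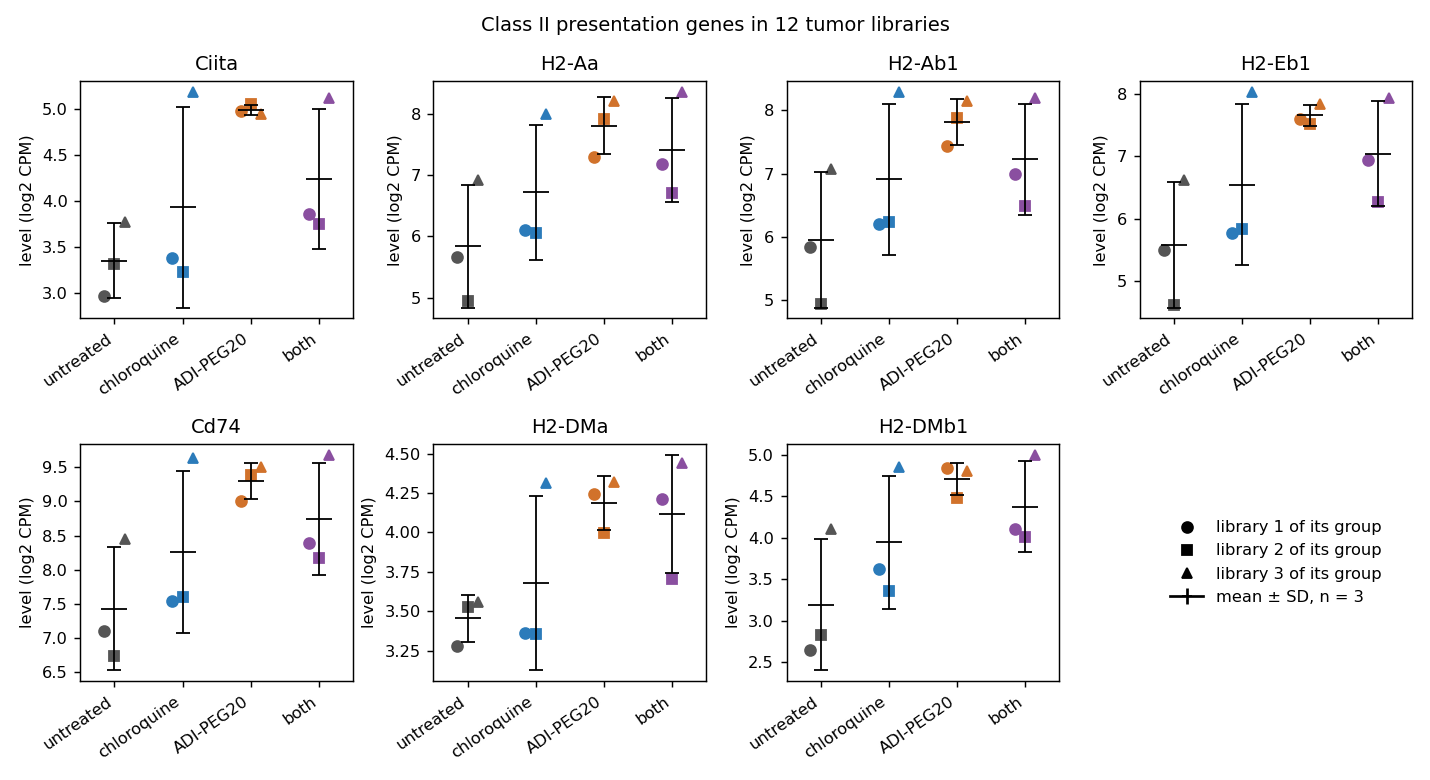
Level in log2 CPM (vertical axis, scaled per gene) of the 7 class II genes in the 4 groups, with circles, squares and triangles for libraries 1, 2 and 3 and bars for mean ± SD (n = 3). In each panel the 3 ADI-PEG20 libraries lie above the 3 untreated ones. Library 3 of the untreated, chloroquine and combination groups lies above the other 2 of its group.

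Per kilobase of annotated exon, the mean levels stood in the same order in untreated and ADI-PEG20 tumors, with H2-Ab1 and H2-Eb1 nearly equal in the untreated ones. In untreated tumors the mean level was 118 CPM per kilobase for Cd74, 28.9 for H2-Ab1, 28.9 for H2-Eb1 and 17.8 for H2-Aa. The exchanger genes H2-DMb1 and H2-DMa stood at 6.04 and 3.18 CPM per kilobase and Ciita at 1.10. With ADI-PEG20 the means were 380 CPM per kilobase for Cd74, 104 for H2-Eb1, 89.5 for H2-Ab1 and 61.1 for H2-Aa. H2-DMb1, H2-DMa and Ciita then stood at 15.7, 5.30 and 3.32 CPM per kilobase. From the lowest to the highest of the 12 libraries, H2-Aa spanned 10.7-fold, H2-Eb1 10.7-fold, H2-Ab1 10.2-fold and Cd74 7.78-fold in CPM. The span was 5.11-fold for H2-DMb1, 4.65-fold for Ciita and 2.23-fold for H2-DMa.

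For the whole group, ADI-PEG20 alone was the comparison in which the class II genes stood furthest from untreated tumors. All 7 had higher means, where 48.7% of all genes did, by a median of 1.86 log2 units against -0.01 over all genes, and in all 7 the groups did not overlap. Among all genes, 5.57% were higher without overlap. None of the 7 passed an adjusted p of 0.05 in limma, where 0% of all genes passed, and none passed when limma's voom weights were used on the recovered reads. At an unadjusted p under 0.05, 7 of 7 were higher, against 5.17% of all genes. The 7 were chosen with earlier results of these data known. Their levels also moved together over the 12 libraries, at Pearson's r of 0.84 to 0.99 between pairs. A count of 7 is thus not 7 independent results, here and in the comparisons below. In bulk tumor RNA, more cells of a type and more RNA per cell cannot be told apart, and these levels do not say which cells held the RNA. The median difference stayed between 1.52 and 2.39 when each library was left out in turn. It was 2.02 without ADI-PEG20 library 1, and 1.62 without both that library and untreated library 2.

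Chloroquine alone gave means above untreated for all 7 genes (49.3% of all genes), with groups that overlapped in each (3.69% of all genes were higher without overlap). The median difference was 0.83 log2 units, from 0.22 for H2-DMa to 0.97 for H2-Eb1, and limma's adjusted p was 0.999 for each gene. No gene of the 7 reached an unadjusted p under 0.05 in limma, at which 2.06% of all genes were higher. None passed after adjustment, with or without voom weights (0% of all genes). The value rests largely on 1 library: without chloroquine library 3 the median was 0.22, and the differences of Ciita and H2-DMa turned to -0.049 and -0.096. The median was 0.48 without untreated library 2, 1.34 without untreated library 3, and 0.42 with weights for library quality.

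The combination lay between ADI-PEG20 and chloroquine in mean for each gene, and 7 of 7 means were above untreated (50.8% of all genes). Against untreated tumors its differences were 0.89 for Ciita, 1.58 for H2-Aa, 1.27 for H2-Ab1, 1.47 for H2-Eb1, 1.32 for Cd74, 0.66 for H2-DMa and 1.18 for H2-DMb1 in log2 units. In limma 5 of 7 had an unadjusted p under 0.05, against 4.7% of all genes higher at that level, and none of the 7 passed after adjustment (adjusted p 0.48 to 0.62) with or without voom weights, as 0% of all genes did. Only H2-DMa had groups that did not overlap, where 7.46% of all genes were higher without overlap. The median difference was 1.27, and 0.85 without combination library 3. The 3 comparisons with untreated tumors share the same untreated libraries.

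**Figure D2:**
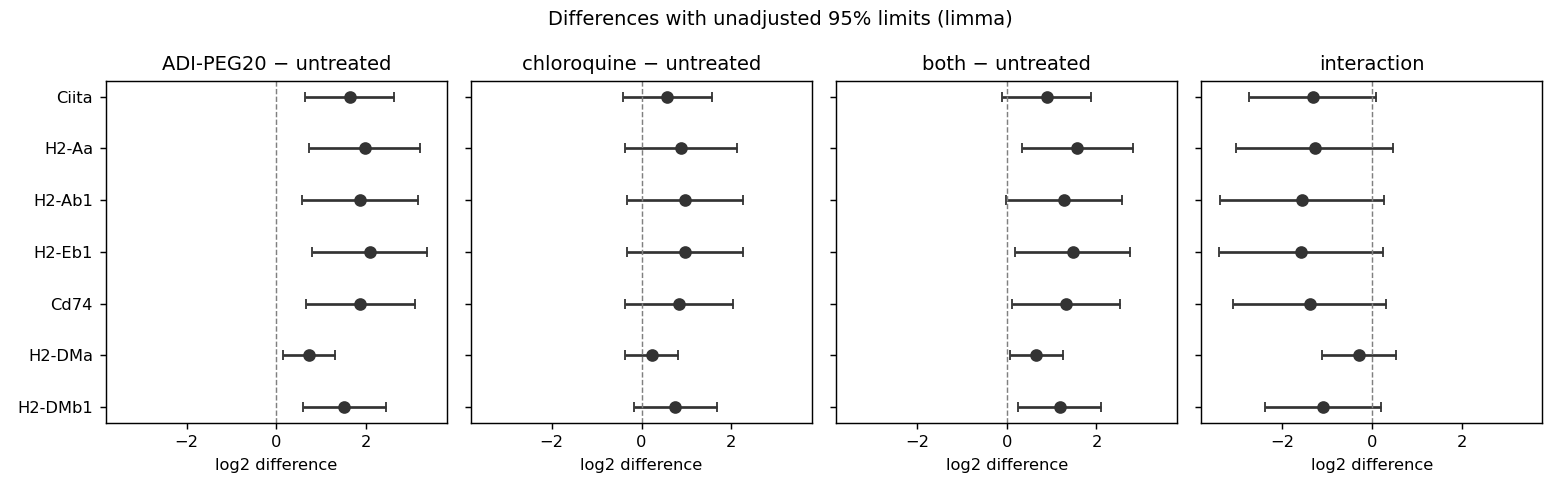
Log2 differences (horizontal axis) of the 7 genes for ADI-PEG20, chloroquine and the combination against untreated and for the interaction, with unadjusted 95% limits from limma. The 7 limits lie above 0 for ADI-PEG20, and the 7 cross 0 for chloroquine and for the interaction.

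Adding chloroquine to ADI-PEG20 gave lower means for 7 of 7 genes, where 51.1% of all genes had higher ones, by a median of -0.55 log2 units. The differences ran from -0.74 for Ciita to -0.07 for H2-DMa, with adjusted p of 0.89 or more in limma and groups that overlapped in each gene. For Ciita the unadjusted 95% limits were -1.74 and 0.25. The median was -0.22 without combination library 2 and -1.02 without combination library 3. None of the 7 reached an unadjusted p under 0.05 in limma, at which 2.01% of all genes were lower, or passed after adjustment (0% of all genes), and none passed with voom weights.

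Adding ADI-PEG20 to chloroquine gave higher means for 7 of 7 genes (51.4% of all genes), by a median of 0.44 log2 units and with overlap in each. The largest difference was 0.70 for H2-Aa (standard error 0.58, adjusted p = 0.86 in limma), and none of the 7 reached an unadjusted p under 0.05, at which 3.11% of all genes were higher, or passed after adjustment, with or without voom weights. Between these groups the deviations of same-numbered libraries from their group means correlated weakly, at r = 0.12, 0.11 and 0.15 for numbers 1, 2 and 3. Untreated library 1 and chloroquine library 2, of different numbers, reached 0.19. Over all groups, 9 of 18 same-numbered pairs exceeded 0.1, against 3 of 36 pairs of different numbers. A fit of chloroquine and the combination alone, with the replicate number as a block, was added after seeing the data. It gave an adjusted p of 0.036 for H2-Aa in limma. That fit called 365 genes in all, and H2-Aa was the 1 member called. The 2 groups alone without the block gave 72 genes and no member, and the block with all 4 groups gave 0 genes (0%), as did the fit of the 4 groups without it. The other 6 members had adjusted p of 0.12 to 0.42 in it. Macrophage and monocyte markers were higher for 14 of 14 in this comparison (median 0.55, 9 at an unadjusted p under 0.05). Skeletal muscle markers were lower for 7 of 7 (median -2.68), myogenic markers lower for 4 of 4 (-1.90) and epithelial markers higher for 5 of 5 (2.0). None of these markers passed after adjustment in limma, and their part in the class II values was not tested. Without chloroquine library 3 the median of the 7 class II genes was 1.0 and without combination library 3 it was 0.06, and it was 0.13, 0.14 and 0.68 without chloroquine library 1, chloroquine library 2 or combination library 2.

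The interaction term asks whether the ADI-PEG20 difference was the same with and without chloroquine. It was negative for 7 of 7 genes, where 50.4% of all genes had a positive one, from -1.58 for H2-Eb1 to -0.29 for H2-DMa in log2 units. None passed in limma (adjusted p 0.82 to 0.87, 0% of all genes) or with voom weights, none reached an unadjusted p under 0.05, at which 2.36% of all genes were lower, and for H2-Eb1 the unadjusted 95% limits were -3.39 and 0.24. The median of -1.32 became -0.69 without chloroquine library 3. Averaged over both chloroquine states, the ADI-PEG20 difference had a median of 1.09, with 7 of 7 genes at an unadjusted p under 0.05 (5.42% of all genes were higher at that level) and none passing after adjustment in limma (adjusted p 0.29 to 0.41, 0% of all genes) or with voom weights. The chloroquine difference averaged over both ADI-PEG20 states had a median of 0.18 and ranged from -0.08 for Ciita to 0.24 for H2-Aa, with 0% of all genes passing after adjustment. Its sign was not stable: the median was -0.16 without chloroquine library 3, -0.04 without untreated library 2, -0.04 without combination library 3, -0.03 with library quality weights and -0.09 without both libraries that stand apart. In the order of group means, each gene ran from ADI-PEG20 through the combination and chloroquine to untreated, and no neighbours in that order were free of overlap.

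**Figure D3:**
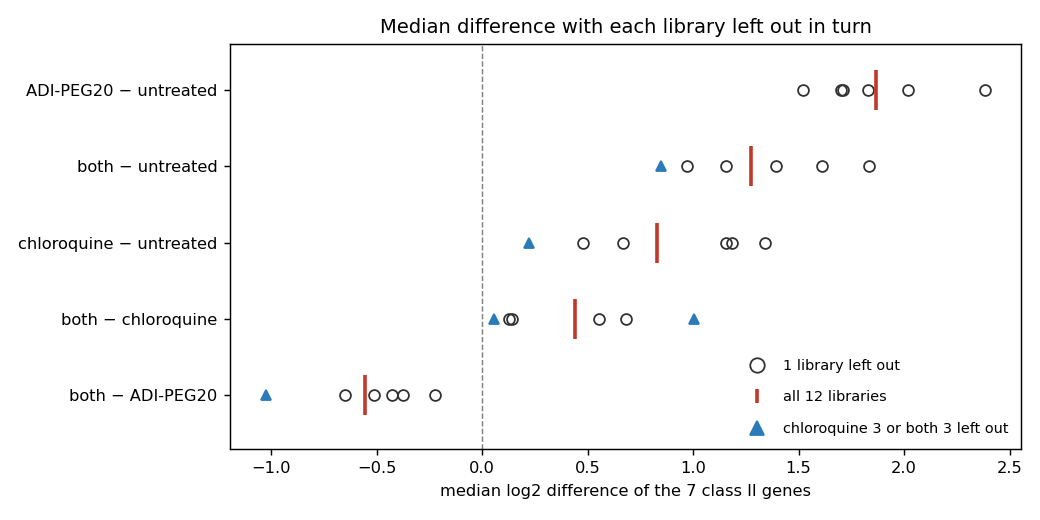
Median log2 difference of the 7 genes (horizontal axis) in 5 comparisons, with all 12 libraries (red bars) and with each library left out in turn (open circles, or blue triangles where chloroquine library 3 or combination library 3 was left out). The values for ADI-PEG20 against untreated stay between 1.52 and 2.39, and those for chloroquine against untreated run from 0.22 to 1.34.

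The 7 genes moved together from library to library. Ranked by their mean log2 CPM, combination library 3 (6.96) and chloroquine library 3 (6.90) came first, followed by ADI-PEG20 libraries 3, 2 and 1 (6.83, 6.60 and 6.48). Untreated libraries 1 and 2 came last, at 4.71 and 4.41. The untreated library 3 stood at 5.79, above both lower chloroquine libraries (5.14 and 5.09) and above combination library 2 (5.59). In this mean, library 3 was the highest of its group in each of the 4 groups, and the cause was not tested. Pearson's r over the 12 libraries, which share their group differences, ran from 0.84 to 0.99 in the 21 pairs of genes, with a median of 0.94. Among 14891 other genes, those with a pattern most like the mean of the 7 were Icosl (r = 0.97), a costimulatory ligand, and Unc93b1 (0.96), a carrier of endosomal Toll-like receptors. H2-K1 (0.95) and H2-D1 (0.95), the classical class I heavy chains of this strain, came next, followed by Hcls1 (0.95), a signalling adaptor of blood cells, and Nlrc5 (0.95), the coactivator of class I genes. For Ciita alone the most alike of 14897 genes was Cd74 (0.95), with H2-DMb1 (0.93) and H2-Eb1 (0.93) in places 5 and 6. H2-Ab1, H2-Aa and H2-DMa took places 18, 22 and 24.

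Markers of class II-bearing cells were read beside these levels. For macrophages and monocytes, 14 of 14 markers were in the table and summed to 1255 to 1475 CPM in untreated tumors and 1203 to 1547 with chloroquine. The sum was 1584 to 2124 CPM with ADI-PEG20 and 1849 to 2313 with the combination, with no marker at 0 reads in any library. With ADI-PEG20, 13 of the 14 were higher than untreated, by a median of 0.58 log2 units, among them the C1q chain C1qb (0.71, standard error 0.20) and the Fc receptor Fcgr1 (1.19, standard error 0.26). With the combination, 13 of 14 were higher, by a median of 0.71. None of the 14 passed after adjustment in limma in either comparison, while 9 and 11 were higher at an unadjusted p under 0.05. The macrophage list was thus highest in mean in the combination (6.70 ± 0.17 log2 CPM, SD, n = 3) and the class II genes in ADI-PEG20 (6.64 ± 0.17, SD, n = 3).

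Measured against the macrophage list, the class II mean lay 0.31 to 1.62 log2 units below it in untreated libraries (differences of -0.31 to -1.62). The same difference was -0.08 to 0.22 with ADI-PEG20, -0.92 to 0.15 with the combination and -1.05 to 0.57 with chloroquine. The ADI-PEG20 libraries did not overlap the untreated ones on this measure, while the combination and chloroquine libraries did. Measured against the dendritic cell list, the class II mean lay 2.31 to 3.36 above it in untreated libraries and 3.47 to 3.86 above it with ADI-PEG20, again without overlap. It lay 3.02 to 3.60 above with chloroquine and 3.13 to 3.83 with the combination, and both overlapped untreated. Against the T cell list, untreated (4.96 to 5.66) and ADI-PEG20 (5.51 to 6.06) overlapped. In untreated libraries the class II mean varied more (SD 0.72) than the macrophage mean (SD 0.12), so that difference largely restates the class II values. How often other genes would separate in this way was not counted, and none of these differences was tested.

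**Figure D4:**
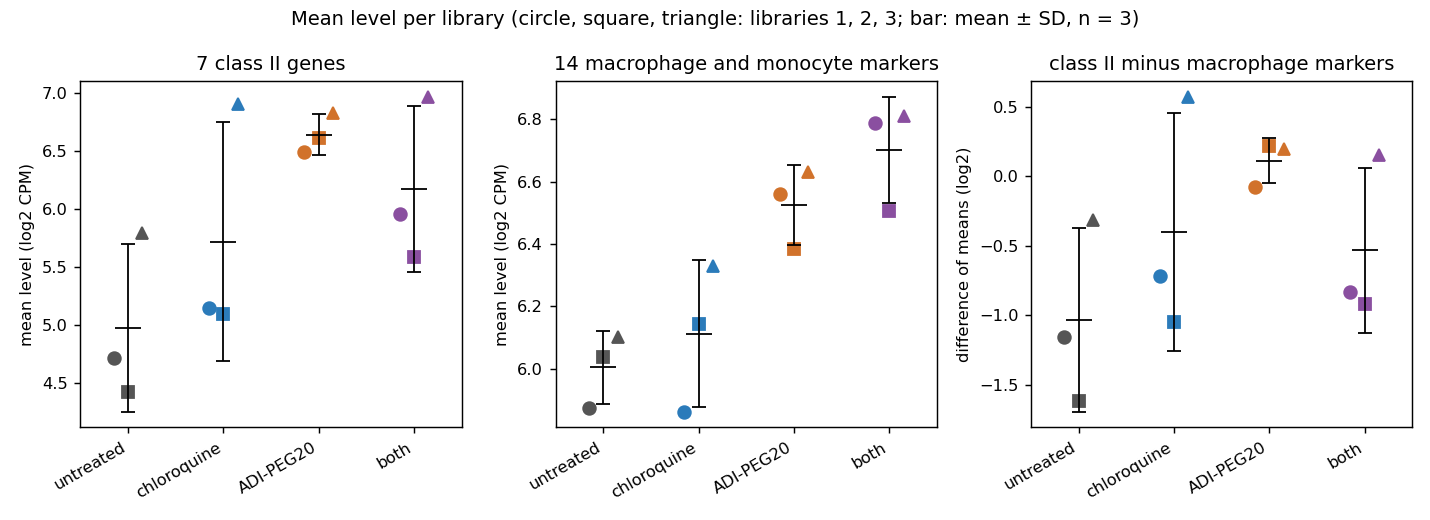
Mean log2 CPM per library of the 7 class II genes (left) and of 14 macrophage and monocyte markers (middle), and the first minus the second (right), with bars for mean ± SD (n = 3). The macrophage mean is highest with the combination (6.70), the class II mean with ADI-PEG20 (6.64), and the difference is -0.08 to 0.22 in the ADI-PEG20 libraries.

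For dendritic cells, 10 of 12 markers were in the table, and the sum was 594 to 814 CPM in untreated tumors, 618 to 690 with chloroquine, 551 to 757 with ADI-PEG20 and 496 to 578 with the combination. Most of that sum was Fscn1, an actin-bundling protein, at a mean of 600.0, 572, 550.2 and 435 CPM in the same order of groups. With ADI-PEG20, 9 of the 10 were higher, by a median of 0.62 log2 units from -0.12 for Fscn1 to 2.12 for Batf3, with none passing after adjustment in limma and 2 at an unadjusted p under 0.05. Their mean level was 2.15 ± 0.26 log2 CPM in untreated tumors and 2.95 ± 0.06 with ADI-PEG20 (SD, n = 3). Within the chloroquine group it was highest in library 3 (3.30), where the class II genes were also highest. The 2 markers at an unadjusted p under 0.05 with ADI-PEG20 were Clec9a and Batf3, genes of cross-presenting dendritic cells. They differed by 1.53 and 2.12 (adjusted p = 0.52 for each in limma) on few reads, 6 to 17 for Clec9a and 12 to 32 for Batf3 in the untreated libraries. The listed Xcr1 and Cd209a are not among the genes of the table used here. B cells could be checked with 3 of 9 markers, which summed to 3.12 to 6.88 CPM in untreated tumors and 9.05 to 13.7 with ADI-PEG20. The sum was 4.75 to 7.54 CPM with chloroquine and 7.06 to 10.2 with the combination, and Cr2 was at 0 reads in 1 library. For T cells, 10 of 10 markers were in the table, and they summed to 9.35 to 14.5 CPM in untreated tumors, 12.4 to 32.7 with chloroquine, 17.9 to 24.5 with ADI-PEG20 and 9.12 to 20.8 with the combination. Cd3g was at 0 reads in 1 untreated library. With ADI-PEG20, 10 of 10 T cell markers were higher than untreated, by a median of 1.22 log2 units, 1 at an unadjusted p under 0.05. Of the markers in the table, 4 of 4 were higher for plasma cells (median 1.78) and 4 of 4 for natural killer cells (1.34). Neutrophil markers were higher for 2 of 4 (-0.19). The natural killer markers summed to only 1.80 to 5.55 CPM in untreated tumors. None of these markers passed after adjustment in limma. The part of these cell types in the class II levels was not tested.

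The factors that seat Ciita on class II promoters differed little with ADI-PEG20. Of the 7 genes of that list (Rfx5, Rfxap, Rfxank, Nfya, Nfyb, Nfyc and Creb1), 2 were higher and 5 lower with ADI-PEG20, by a median of -0.03 log2 units, and none reached an unadjusted p under 0.05 or passed after adjustment in limma. Rfx5, which binds the X box, differed by -0.04 (standard error 0.23). With the combination, Rfxap, an RFX subunit, was lower without overlap, at -0.77 (standard error 0.30, adjusted p = 0.52), where 7.92% of all genes were lower without overlap. Creb1 was higher without overlap, at 0.27 (standard error 0.20, adjusted p = 0.73 in limma), where 7.46% of all genes were higher without overlap. Of the 7 genes listed for the interferon gamma pathway, 6 were in the table, and 5 of these were higher with ADI-PEG20, by a median of 0.22 log2 units, with none passing after adjustment in limma and none at an unadjusted p under 0.05. Ifng itself is not among the genes of the table used here.

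Genes that act on antigen, on Cd74 or on finished class II molecules were read next. For proteins that process antigen or Cd74 (Ctss, Ctsl, Ctsb, Ctsd, Lgmn, Ifi30 and Sppl2a), 6 of 7 were higher with ADI-PEG20, by a median of 0.13, and 7 of 7 with the combination, by a median of 0.29, and none passed after adjustment in limma. At an unadjusted p under 0.05, 1 and 3 of them were higher. Ctss, the protease that makes the last cut of Cd74 in many antigen-presenting cells, differed by 0.52 with ADI-PEG20 and 0.66 with the combination. Ifi30, a thiol reductase of the antigen route, differed by 0.62 in both (adjusted p = 0.52 and 0.47 in limma). H2-DMb2, the near copy of H2-DMb1, differed by 1.19 with ADI-PEG20 (standard error 0.47, adjusted p = 0.55), and H2-Ob, a chain of the inhibitor of the exchanger, by 0.57 (standard error 0.47, adjusted p = 0.73). March1, a ubiquitin ligase that removes class II from the surface, differed by 0.78 with ADI-PEG20 and 0.90 with the combination (adjusted p = 0.55 and 0.47 in limma), while the related March8 differed by -0.16 and -0.15.

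On the side of recognition, 7 of 8 listed genes were in the table, and 7 of 7 were higher with ADI-PEG20, by a median of 0.77 log2 units, none after adjustment in limma and 3 at an unadjusted p under 0.05. Cd4, the coreceptor for class II, stood at 0.95, 1.54 and 3.03 log2 CPM in the untreated libraries, 1.59, 2.35 and 3.98 with chloroquine, 3.27, 3.65 and 3.98 with ADI-PEG20, and 2.51, 3.14 and 3.69 with the combination. The ADI-PEG20 libraries lay above the untreated ones, and library 3 was the highest of its group in every group. Its difference with ADI-PEG20 was 1.79 (standard error 0.59, adjusted p = 0.52 in limma). Lag3, an inhibitory receptor for class II, differed by 0.77 with ADI-PEG20 and -0.20 with the combination. The costimulatory receptor Cd40 and the costimulatory ligands Cd86 and Cd80 differed by 0.94, 0.54 and 0.04 with ADI-PEG20.

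**Figure D5:**
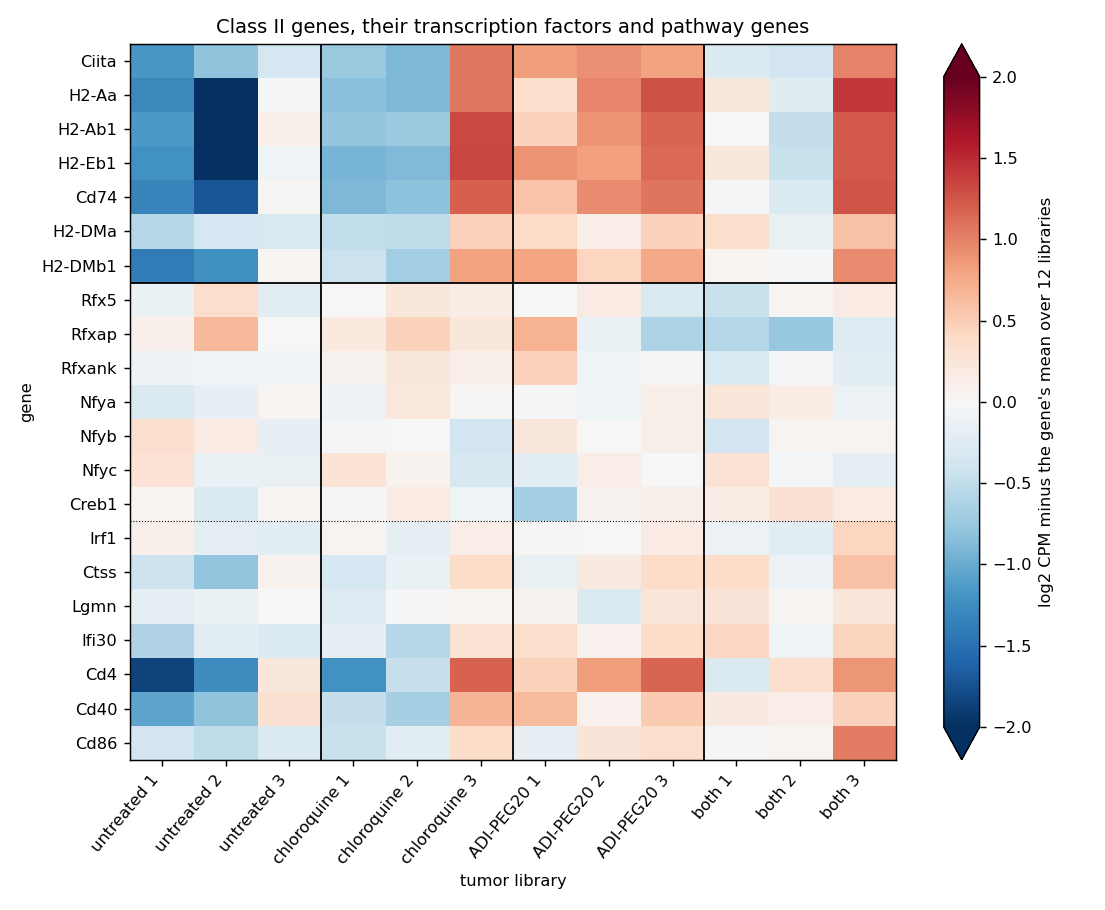
Log2 CPM minus each gene's mean over the 12 libraries (color, from -2 to 2) for the 7 class II genes (top block), 7 factors that act on their promoters (middle) and 7 other pathway genes (bottom), by library. The class II rows are high in the 3 ADI-PEG20 libraries and in library 3 of the chloroquine and combination groups.

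In the authors' deposited table, the 7 genes had log2 fold changes of 0.71 to 1.89 for ADI-PEG20 against untreated, with an adjusted p of 0.857 for each. For the combination against untreated the authors' deposited table gives 0.72 to 1.47, with adjusted p of 0.415 to 0.562, and for chloroquine 0.14 to 0.52, with adjusted p of 0.998. The fit here gave 0.22 to 0.97 for chloroquine, and why the values differ was not tested. For the combination against chloroquine the authors' deposited table gives 0.58 to 1.01 (adjusted p 0.303 to 0.620), where the fit here gave 0.31 to 0.70. H2-DMa had an unadjusted p of 0.028 there in the authors' deposited table. For chloroquine against ADI-PEG20 it gives -1.43 to -0.58 (adjusted p 0.687 to 0.769). None of the 7 passes an adjusted p of 0.05 in the authors' deposited table in these comparisons. The authors' deposited tables of gene sets list the KEGG set for antigen processing and presentation, which holds 63 genes, with all 7 members and also class I genes. Its p in the authors' deposited tables was 6.93e-07 for ADI-PEG20 (false discovery rate 5.78e-05 over 246 sets), 1.40e-05 for the combination (0.00131) and 0.00169 for chloroquine (0.416). The tool behind the authors' deposited set p-values is not given in the sources used here.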

How the data were processed

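Tumor RNA was measured by RNA-seq in 12 libraries. The deposited values are log2 CPM per gene. The submitters' processing notes list, with no role for any, limma, edgeR, Salmon 0.8.2, STAR 2.5.1a and bcl2fastq. They also list the build mm10 and featureCounts 1.4.6-p5 of Subread. The authors' deposited p-values and adjusted p-values came with their fold changes and KEGG sets; the deposited score columns (signed linear fold changes and a set statistic) were not used. Of 16386 lines, 51 repeat an identifier, leaving 16335 genes. Whole reads were recovered from the log2 CPM (offset 0.5 reads): 100% of values under 2000 reads lay within 0.02 of a whole number. These were used for depth, with voom weights as an alternative.

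All 12 libraries entered 1 limma 3.58.1 trend fit (R 4.3.3) with 8 contrasts; p-values are two-sided and Benjamini-Hochberg adjusted over 16335 genes, with a threshold of 0.05. The fit was tested on simulated data. All members are named, with genes of lists ordered by role and the 6 genes most alike by Pearson's r among those with a mean log2 CPM of 0 or more. One listed pathway gene is not reported here. The members and lists were chosen with earlier results of these data known. Alternatives were library weights, median scaling, a pseudocount of 2 reads, a filter on low values, a fit of 2 groups, a replicate block and each library left out. Replicate numbers recur in all groups, without a stated meaning. Deviations of same-numbered libraries correlated at -0.05 to 0.20 over 18 pairs (median 0.10), and 9 of these exceeded 0.1. Those of different numbers correlated at -0.24 to 0.19 over 36 pairs (median -0.04), and 3 exceeded 0.1. All 3 same-numbered pairs exceeded 0.1 only between chloroquine and the combination, so a fit of these 2 groups with the block was added. The main fit used no block in any comparison. Positions, exons and coding sequences are from GENCODE on GRCm38.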

Additional observations from a re-analysis of the deposited data

How the results depend on the processing

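The count of class II genes passing an adjusted p of 0.05 in limma was 0 in each of the 8 comparisons and stayed at 0 under each alternative that could be fitted, the removal of each library in turn included (range 0 to 0), with 2 exceptions. The replicate block raised it to 1 for ADI-PEG20 averaged over chloroquine states (H2-Aa, adjusted p = 0.026 in limma, of 31 genes in all). The number has no stated meaning, and 9 of 12 libraries correlated best with their own number. The replicate block with only the 2 groups compared, added after seeing the data, raised it to 1 for the combination against chloroquine (H2-Aa, adjusted p = 0.036). Over the alternatives the adjusted p for ADI-PEG20 against untreated in limma ran from 0.11 to 0.96, and with the replicate block from 0.12 to 0.31. Of 294 alternative values of single genes in the 3 comparisons with untreated tumors, 292 kept their sign. The others were for chloroquine against untreated without chloroquine replicate 3, where Ciita was -0.049 and H2-DMa -0.096. With each library left out in turn these ran from -0.049 to 0.93 and from -0.096 to 0.38, and the cause was not tested. The median chloroquine difference averaged over ADI-PEG20 states ran from -0.16 to 0.44 without single libraries, and lay below 0 without untreated 2, chloroquine 3 or combination 3, with library quality weights (-0.03) and without both libraries that stand apart (-0.09). With 3 libraries in a group, the standard errors of the 7 genes were 0.27 to 0.60 in the pairwise comparisons, 0.38 to 0.85 for the interaction and 0.19 to 0.42 for the averaged ones.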

Other observations

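The balance of the I-A chains differed little between libraries. H2-Aa minus H2-Ab1 was 0.16 to 0.22 log2 units in the combination libraries, -0.13 to 0.07 with ADI-PEG20, -0.18 to 0.00 in untreated tumors and -0.29 to -0.10 with chloroquine. The combination libraries thus did not overlap the other 9, a comparison chosen after the values were seen and not tested. Cd74 exceeded H2-Aa by 1.44 to 1.79 log2 units in untreated tumors, 1.42 to 1.64 with chloroquine, 1.29 to 1.71 with ADI-PEG20 and 1.21 to 1.46 with the combination, with ranges that overlap in part. H2-DMb1 minus H2-DMa ranged from -0.70 to 0.55 within the untreated group and from 0.49 to 0.60 with ADI-PEG20.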
